A study of Mus musculus with 8 samples.

Results

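The 10 genes Ucp1, Prdm16, Ppargc1a, Ppargc1b, Dio2, Kcnk3, Slc36a2, P2rx5, Cidea and Elovl3 are used as markers of brown and beige fat, and their expression was followed in RNA sequencing of 3T3-L1 cells. They were taken from the deposited count table by matching Ensembl identifiers to these symbols. All 10 were in the table, which lists 49585 genes. 3T3-L1 is an established mouse fibroblast line whose cells can be turned into fat cells by hormones, and it is used mostly as a model of white fat. The 4 groups of 2 samples were compared on day 7: induced spheroids (3D induced), uninduced spheroids (3D uninduced), induced flat cultures (2D induced) and uninduced flat cultures (2D uninduced). Spheroids were formed in hanging drops of 28 µL seeded with about 20000 cells, and flat cultures grew in dishes. Induced cultures were given insulin at 1 µg/ml and troglitazone, an agonist of the nuclear receptor PPARγ, at 10 µM for 7 days. In the first 2 days they also had the glucocorticoid dexamethasone at 250 nM and the thyroid hormone triiodothyronine (T3) at 10 nM. Uninduced cultures have no treatment in the labels, and the labels give all groups the same high-glucose medium with calf serum and methylcellulose.

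Brown and beige fat cells burn fuel to make heat. Uncoupling protein 1, the product of Ucp1, lets protons flow back across the inner mitochondrial membrane without making ATP, and beige cells, which lie within white fat, can switch this programme on after cold or adrenergic stimulation. The regulator Prdm16 drives the identity of these cells, and the coactivators encoded by Ppargc1a and Ppargc1b increase mitochondrial mass and respiration. Dio2 makes the active thyroid hormone inside brown fat cells. Kcnk3, Slc36a2 and P2rx5 encode proteins of the cell surface that have been used to tell brown and beige fat from white fat, Cidea coats lipid droplets, and Elovl3 lengthens fatty acids.

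The 8 libraries held 11839374 to 21169390 counts. The 10 markers together took 9375 of 118317979 counts. Levels are given in CPM, counts scaled to a common library size after TMM scaling. Genes with about 0.707 CPM on unscaled sizes in at least 2 libraries were tested, which left 15255 genes and 6 of the markers. A call needed a change of at least 2-fold with an adjusted p under 0.05 in edgeR's quasi-likelihood test (Benjamini-Hochberg over the 15255 genes). The labels speak of independent preparation but not of separate cultures, so the p-values measure only the spread between these samples, which may be technical. The replicates of 3D induced spheroids were far apart. In that group 2159 tested genes differed by 2-fold or more from one replicate to the other, and in the other groups 380 to 561 did, so the markers' differences that rest on them are also given without each. The 7 fat cell markers were all tested, and their summed level was 3569 to 3923 CPM in 3D induced, 1073 to 1430 CPM in 3D uninduced, 9563 to 10053 CPM in 2D induced and 1673 to 1710 CPM in 2D uninduced libraries. Adipoq, which encodes the fat cell hormone adiponectin, had 465 counts in 3D induced, 0 in 3D uninduced, 5987 in 2D induced and 1 in 2D uninduced libraries. In these bulk samples, fewer fat cells and less RNA per fat cell cannot be told apart.

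Promoter sequences of 3 markers are shown because cyclic AMP signalling is the known route by which cold and adrenergic hormones switch on these genes, and the cultures had no such stimulus in the labels. They are RefSeq sequences of build GRCm38.p6, which lists promoters for 4 of the 10 markers, and each runs from 250 bases before to 50 bases after the RefSeq start site. Capitals mark a cyclic AMP response element (TGACGTCA), its core site (TGACG) on either strand, or a TATA box (TATAAA). The windows are chr5:51567676-51567975 on the minus strand for Ppargc1a, chr8:83290098-83290397 on the plus strand for Ucp1 and chr12:90738989-90739288 on the minus strand for Dio2.
Ppargc1a promoter: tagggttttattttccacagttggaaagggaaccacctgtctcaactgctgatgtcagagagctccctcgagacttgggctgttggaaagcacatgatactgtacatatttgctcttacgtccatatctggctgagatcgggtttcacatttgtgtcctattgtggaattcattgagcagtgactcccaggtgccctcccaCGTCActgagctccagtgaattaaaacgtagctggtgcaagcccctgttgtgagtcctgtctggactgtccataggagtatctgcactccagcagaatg
Ucp1 promoter: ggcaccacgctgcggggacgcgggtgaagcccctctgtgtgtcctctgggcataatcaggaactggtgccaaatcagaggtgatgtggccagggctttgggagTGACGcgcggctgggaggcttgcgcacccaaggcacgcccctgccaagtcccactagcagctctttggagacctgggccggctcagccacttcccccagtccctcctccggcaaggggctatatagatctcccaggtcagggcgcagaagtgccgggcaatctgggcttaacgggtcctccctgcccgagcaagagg
Dio2 promoter: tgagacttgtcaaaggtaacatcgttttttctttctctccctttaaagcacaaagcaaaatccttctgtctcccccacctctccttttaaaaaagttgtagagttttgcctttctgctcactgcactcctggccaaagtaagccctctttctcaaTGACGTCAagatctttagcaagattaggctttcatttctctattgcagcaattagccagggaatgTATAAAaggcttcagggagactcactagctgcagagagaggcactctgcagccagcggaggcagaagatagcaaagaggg

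The Ppargc1a window held the core site once, on the reverse strand, at 49 to 45 bases before the start. The Ucp1 window held it once, at 147 to 143 bases before the start. The Dio2 window held the full element at 95 to 88 bases before the start, within which the core site matches on both strands, and a TATA box at 30 to 25 bases before the start. Both strands of 32851 promoters of the same length were searched. The full element was in 1.79% of them, the core site in 20.8% and TATAAA in 13.6%. The fourth window, of Prdm16, held only a GC box (GGGCGG), which was in 35.7% of promoters. None of the 4 windows held the C/EBP palindrome TTGCGCAA, the estrogen-related receptor element TCAAGGTCA or the direct repeat bound by PPAR receptors, which were in 0.183%, 0.423% and 0.0396% of promoters. These matches are letters in a window and say nothing about whether a factor binds there.

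Ucp1, Prdm16 and Cidea, the markers closest to the heat-producing state, were at or near 0 in every group. Prdm16 had 0 counts in all 8 libraries. Ucp1 had 1 count, in 3D uninduced replicate 1, and 0 in the other 7 libraries. Cidea had 1 and 0 counts in 3D induced libraries, 1 and 1 in 3D uninduced libraries and 0 in all 2D libraries. A count of 0 allows up to 3 counts, which is 0.149 to 0.268 CPM depending on the library and covers counting error only. No difference in Ucp1, Prdm16 or Cidea with induction or format was detectable at this depth. Prdm16 lies on chromosome 4 from 154316125 to 154636873 and Ucp1 on chromosome 8 from 83290352 to 83298452 (GENCODE vM21, GRCm38), and Cidea is on chromosome 18. The nearest relatives of these genes were measured in the same libraries. Ucp2, a related mitochondrial carrier that is not specific to brown fat, averaged 186 ± 44.8 CPM in 3D induced, 158 ± 7.93 in 3D uninduced, 217 ± 5.18 in 2D induced and 139 ± 4.45 in 2D uninduced cultures (SD, n = 2). Cidec, the Cidea relative of white fat droplets, had 2188 counts in 3D induced, 5 in 3D uninduced, 20306 in 2D induced and 1 in 2D uninduced libraries, and its increase was called in both formats (in spheroids not without either 3D uninduced library or with the 4 spheroid libraries alone).

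Elovl3, an elongase of very long chain fatty acids that rises in cold-exposed brown fat, was seen in 2D induced libraries alone, with 4 and 9 counts. All 6 other libraries had 0. Against the floor of 3 counts over a group, Elovl3 was at least 5.67-fold higher in 2D induced than in 2D uninduced cultures, and at least 5.42-fold lower in 3D induced than in 2D induced cultures, taking the 13 counts of 2D induced libraries as exact. With the counting error of the 13 counts included, the exact 95% limits of these ratios were 3.99-fold and 3.81-fold. It stayed below the test's count filter. Elovl3 (chromosome 19, 46131897 to 46135694) shares 10 exon bases with Pitx3 on the other strand, which had 0 to 3 counts per library.

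Kcnk3, which encodes the acid-sensitive potassium channel TASK-1 and has been reported as a brown fat gene that dampens adrenergic signalling, was the most abundant of the 10. Per kilobase of exon its mean level over all libraries was 13.0 CPM, above 70.7% of 15217 tested genes with a length. It had 1155 and 1221 counts in 3D induced, 762 and 766 in 3D uninduced spheroids, 778 and 887 in 2D induced cultures, and 206 and 151 in 2D uninduced libraries. In CPM these were 78.2 and 71.5 in 3D induced, 56.2 and 55.7 in 3D uninduced spheroids, 69.5 and 62.1 in 2D induced cultures, and 10.3 and 11.4 in 2D uninduced libraries. The 2D uninduced libraries stood alone at the low end, and uninduced spheroids were close to induced cultures of either format.

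Without induction, Kcnk3 was 5.18-fold higher in spheroids, at 55.9 ± 0.346 CPM in 3D uninduced against 10.8 ± 0.797 CPM in 2D uninduced cultures (log2 2.37 ± 0.13 SE, edgeR quasi-likelihood adjusted p = 1.39e-04). In flat cultures induction raised it 6.09-fold, to 65.8 ± 5.24 CPM in 2D induced cultures (2.61 ± 0.13, adjusted p = 7.67e-05). Both calls held under all 15 alternative settings. In spheroids it was 74.8 ± 4.75 CPM with and 55.9 ± 0.346 CPM without induction, a difference of 0.42 ± 0.12 that was not called (edgeR adjusted p = 0.156, 95% interval 0.15 to 0.69). Without 3D induced replicate 1 or 2 this difference was 0.36 (edgeR adjusted p = 0.0175) or 0.48 (0.00643), still under 2-fold. The response to induction differed between the formats, with an interaction of -2.19 ± 0.17 on the log2 scale (edgeR adjusted p = 0.00469), where 0.38% of all tested genes were called. The interaction call was lost without 2D uninduced replicate 1 (edgeR adjusted p = 0.0969) or 2 (0.0620), 2D induced replicate 1 (0.0641) or 3D uninduced replicate 2 (0.0532), with values of -2.09 to -2.24. Without 3D induced replicate 1 or 2 it was -2.25 (edgeR adjusted p = 2.80e-07) or -2.12 (2.79e-07). Between induced cultures the 3D over 2D difference was 0.19 ± 0.12 and was not called (edgeR adjusted p = 0.265, 95% interval -0.09 to 0.46), and it was 0.13 or 0.25 without 3D induced replicate 1 or 2.

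The order of Kcnk3 levels was 3D induced, 2D induced, 3D uninduced and then 2D uninduced. The 2D induced and 3D uninduced libraries of Kcnk3, neighbours in this order, did not overlap and were not compared by a test. The summed fat cell markers had another order and were lowest in 3D uninduced libraries. In uninduced cultures that sum was mostly Lpl, at 1165 CPM in 3D uninduced and 1620 CPM in 2D uninduced cultures. Plin1 (6.95 against 0.0249 CPM), Fabp4 (35.6 against 22.7) and Cidec (0.184 against 0.0249) averaged higher in 3D uninduced than in 2D uninduced cultures. Pparg (31.6 against 33.2), Cebpa (12.7 against 15.9) and Adipoq (0 against 0.0377) averaged lower. The part of fat cells in the Kcnk3 levels was not tested. Of 11 tested genes of fat cell identity, Plin1 and Cd36 were called higher in 3D uninduced than in 2D uninduced cultures (Cd36 not without either 2D uninduced library, 3D uninduced replicate 2 or either 3D induced library, or with no count filter). Other cell type markers were also measured. The summed smooth muscle markers (5 of 7 tested) were 54.9 to 106 CPM in 3D induced, 74.2 to 80.6 in 3D uninduced, 126 to 131 in 2D induced and 330 to 332 in 2D uninduced libraries, with Myocd at 0 in all groups but 2D uninduced. They were highest where Kcnk3 was lowest. The summed macrophage markers (4 of 8 tested) were 28.0 to 53.5, 61.8 to 65.6, 18.6 to 18.6 and 21.5 to 28.1 CPM in the same order of groups, with Ptprc, Adgre1 and C1qa at 0 in every library. Kcnk3 (chromosome 5, 30588170 to 30625271) shares 229 exon bases with Gm9899 on the other strand, and the strand setting of the counting is not given in the sources used here. Gm9899 had 224 and 224 counts in 3D induced, 179 and 133 in 3D uninduced spheroids, 113 and 130 in 2D induced cultures and 29 and 31 in 2D uninduced libraries, fewer than Kcnk3 in each. Reads from the shared bases cannot be assigned to either gene from these files.

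**Figure D1:**
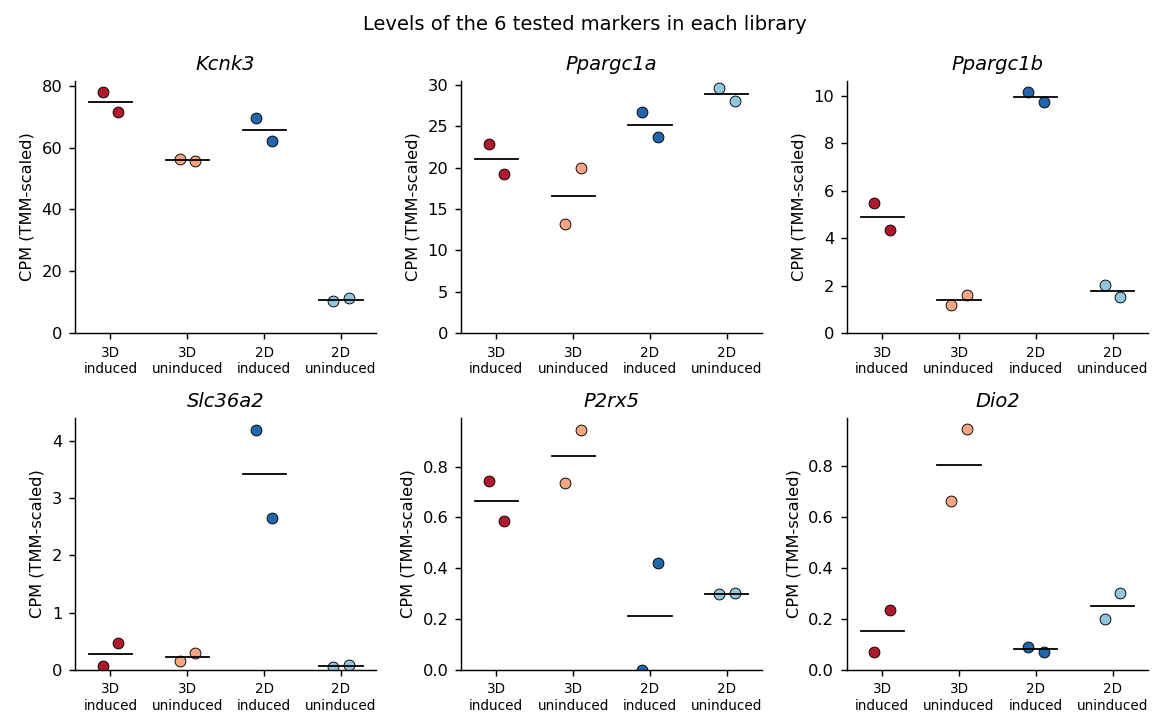
Level of each of the 6 tested markers in CPM on TMM-scaled library sizes (y axes differ and start at 0) in the 4 groups on the x axis. Each point is 1 library and each line the mean of 2. Kcnk3 was low in 2D uninduced libraries alone (10.3 and 11.4 CPM), and Slc36a2 was high in 2D induced libraries alone (4.20 and 2.66 CPM).

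Ppargc1a encodes PGC-1α, the coactivator that cold and adrenergic signals induce in brown fat, and its level moved little with induction. It had 338 and 328 counts in 3D induced, 179 and 275 in 3D uninduced spheroids, 299 and 338 in 2D induced cultures, and 596 and 373 in 2D uninduced libraries. Its mean levels were 21.04 ± 2.60 CPM in 3D induced, 16.6 ± 4.81 in 3D uninduced, 25.2 ± 2.16 in 2D induced and 28.9 ± 1.10 in 2D uninduced cultures (SD, n = 2). The 3D induced and 3D uninduced libraries overlapped, and the 2D libraries lay above them all. In flat cultures the difference with induction was -0.20 ± 0.21 (log2, edgeR adjusted p = 0.613, 95% interval -0.68 to 0.28), and in spheroids it was 0.34 ± 0.21 (adjusted p = 0.595, -0.14 to 0.83). The spheroid value was 0.21 or 0.46 without 3D induced replicate 1 or 2, and 0.07 or 0.67 without 3D uninduced replicate 1 or 2. Without induction, Ppargc1a was 1.74-fold lower in spheroids than in flat cultures (-0.80 ± 0.21, edgeR adjusted p = 0.0322), which passed the p threshold but not the 2-fold one. This value was -0.53 (adjusted p = 0.162) without 3D uninduced replicate 1 and -1.14 (0.0281, then called) without replicate 2. Between induced cultures the 3D over 2D difference was -0.26 ± 0.21 (edgeR adjusted p = 0.377), or -0.38 and -0.14 without 3D induced replicate 1 and 2. Ppargc1a lies on chromosome 5 from 51454250 to 51567726.

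Ppargc1b encodes PGC-1β, the coactivator that accompanies fat cell differentiation and lipid metabolism, and it was called higher with induction in both formats. Ppargc1b, on chromosome 18, had 81 and 74 counts in 3D induced, 16 and 22 in 3D uninduced spheroids, 114 and 139 in 2D induced cultures, and 41 and 20 in 2D uninduced libraries. The induced libraries of each format lay above both uninduced groups without overlap. Flat cultures reached 9.96 ± 0.321 CPM with induction against 1.77 ± 0.377 CPM without, a 5.53-fold increase (log2 2.47 ± 0.28, edgeR adjusted p = 0.00194) that was called under all 15 alternatives. Spheroids reached 4.91 ± 0.814 CPM with induction against 1.39 ± 0.297 CPM without, a 3.51-fold increase (1.81 ± 0.29, edgeR adjusted p = 0.0316). The spheroid call was lost in 9 of the 15 alternatives. These were the replicate block (adjusted p = 0.0557), the 4 spheroid libraries alone (0.395), limma-voom with group weights (0.285) and leaving out any 2D or 3D uninduced library (0.0871 to 0.262), with values of 1.61 to 2.05. Without 3D induced replicate 1 or 2 it was 1.64 (edgeR adjusted p = 0.00155) or 1.97 (0.000865).

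The increase of Ppargc1b was not shown to differ between formats (interaction -0.66 ± 0.40, edgeR adjusted p = 0.777, 95% interval -1.58 to 0.27), or -0.81 and -0.48 without 3D induced replicate 1 and 2. Induced spheroids had 2.03-fold less Ppargc1b than induced flat cultures (log2 -1.02 ± 0.25, edgeR adjusted p = 0.0221). That value lies close to the 2-fold threshold, and the call was lost in 6 of 15 alternatives. Among these were leaving out 2D induced replicate 1 (-0.99, adjusted p = 0.123) or 2 (-1.05, 0.1104) and 3D induced replicate 2 (-0.86, 0.0197). Leaving out 3D induced replicate 1 kept the call (-1.19, edgeR adjusted p = 0.00295). Without induction the 3D over 2D difference was -0.37 ± 0.31 (edgeR adjusted p = 0.432). The fat cell marker sums given above moved with Ppargc1b, higher with induction in each format and lower in 3D induced than in 2D induced libraries, and their part in these differences was not tested.

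The ratio of the coactivators was higher in induced than in uninduced libraries. Per kilobase of exon, Ppargc1b was at 39.6% and 37.3% of the Ppargc1a level in 3D induced, 14.8% and 13.2% in 3D uninduced spheroids, 63.0% and 67.9% in 2D induced cultures, and 11.4% and 8.86% in 2D uninduced libraries. The 4 groups did not overlap in this ratio. Over all libraries Ppargc1a averaged 3.48 CPM per kilobase, above 36.7% of tested genes, and Ppargc1b 1.13 CPM per kilobase, above 18.4%. Pprc1, the third member of this coactivator family, averaged 123 ± 10.99 CPM in 3D induced, 119 ± 2.91 in 3D uninduced, 60.0 ± 1.42 in 2D induced and 65.3 ± 3.42 in 2D uninduced cultures. It was called higher in induced spheroids than in induced flat cultures (log2 1.03 ± 0.11, edgeR adjusted p = 0.00105), a call lost without 3D induced replicate 1.

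**Figure D2:**
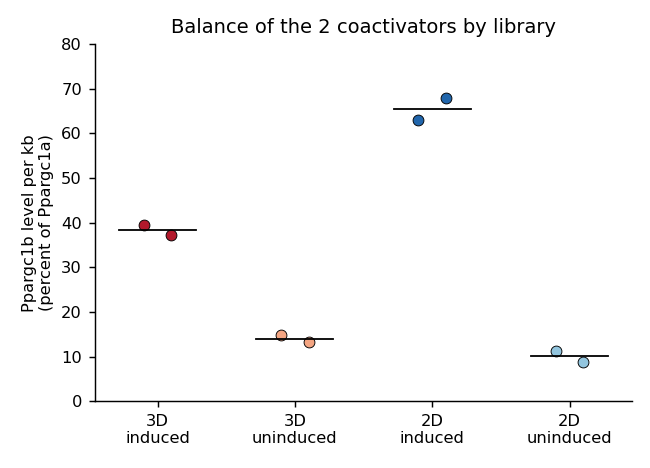
Ppargc1b level per kilobase of exon as a percent of the Ppargc1a level per kilobase (y axis, from 0) in the 4 groups. Points are libraries and lines are means of 2. The induced libraries sit at 37.3% to 67.9% and the uninduced libraries at 8.86% to 14.8%.

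Slc36a2 encodes PAT2, a proton-coupled transporter of small amino acids on the surface of brown and beige fat cells, and it appeared with induction in flat cultures. It had 1 and 8 counts in 3D induced, 2 and 4 in 3D uninduced spheroids, 47 and 38 in 2D induced cultures, and 1 and 1 in 2D uninduced libraries. In CPM these were 0.0677 and 0.468 in 3D induced, 0.147 and 0.291 in 3D uninduced spheroids, 4.20 and 2.66 in 2D induced cultures, and 0.0498 and 0.0754 in 2D uninduced libraries. The 2D induced libraries alone reached the level of the count filter, so the gene was tested only because it was high there, and its calls follow in part from that. From counts alone the ratio of 2D induced to 2D uninduced cultures was 55.6, with an exact 95% counting interval of 14.9 to 467 because 2D uninduced libraries held 2 counts. The model gave 5.64 ± 0.85 on the log2 scale, a value that depends on the prior count (edgeR adjusted p = 0.00711), and the call was lost without 2D uninduced replicate 1 (adjusted p = 0.125) or 2 (0.0937) or 2D induced replicate 1 (0.0766).

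Slc36a2 was 11.95-fold lower in 3D induced than in 2D induced cultures (log2 -3.58 ± 0.68, edgeR adjusted p = 0.00811). It was -2.83 (adjusted p = 0.00171) without 3D induced replicate 1 and -5.48 (0.000207) without replicate 2, so the size rests on the 8 counts of replicate 2. The call was lost without 2D induced replicate 1 (edgeR adjusted p = 0.0726), with the 4 induced libraries alone (0.0552) and with limma-voom group weights (0.149). In spheroids the groups overlapped, and the difference with induction was 0.33 ± 0.90 (edgeR adjusted p = 0.941, 95% interval -1.76 to 2.42), or 1.07 and -1.58 without 3D induced replicate 1 and 2. The interaction was -5.31 ± 1.37 and was not called (edgeR adjusted p = 0.278). It was called without 3D induced replicate 1 (-4.56, adjusted p = 0.0303) or 2 (-7.21, 0.00499) and with no count filter (0.00966). The fat cell marker Adipoq was likewise far lower in 3D induced than in 2D induced libraries (log2 -4.05 ± 0.47, edgeR adjusted p = 0.00208), and the part of fewer fat cells in the Slc36a2 difference was not tested. Slc36a1, the broadly expressed relative PAT1, averaged 64.0 ± 5.10 CPM in 3D induced and 28.1 ± 2.0991 CPM in 2D induced cultures. It was called higher in induced spheroids (1.19 ± 0.14, edgeR adjusted p = 0.00135), the opposite direction to Slc36a2. Slc36a2 lies on chromosome 11 from 55158470 to 55185077.

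P2rx5, an ATP-gated ion channel that has been used as a marker of the surface of brown fat cells, stayed low throughout and was not called in any comparison. It had 11 and 10 counts in 3D induced, 10 and 13 in 3D uninduced spheroids, 0 and 6 in 2D induced cultures, and 6 and 4 in 2D uninduced libraries. The spheroid libraries all lay above the flat ones, at 0.665 ± 0.113 CPM in 3D induced and 0.841 ± 0.147 in 3D uninduced, against 0.210 ± 0.297 in 2D induced and 0.300 ± 0.00200 in 2D uninduced cultures. The 3D over 2D differences were 1.497 ± 0.89 with induction (log2, edgeR adjusted p = 0.235, 95% interval -0.56 to 3.55) and 1.46 ± 0.80 without (0.233, -0.40 to 3.33). With induction it was 1.31 or 1.65 without 3D induced replicate 1 or 2, 0.64 without 2D induced replicate 1, and 6.30 without 2D induced replicate 2, where the remaining 2D induced library held 0 counts and the value depends on the prior count. With induction the difference was -0.34 ± 0.73 in spheroids (edgeR adjusted p = 0.916), or -0.51 and -0.18 without 3D induced replicate 1 and 2. In flat cultures it was -0.38 ± 0.98 (edgeR adjusted p = 0.859), or 0.44 and -5.21 without 2D induced replicate 1 and 2. Its level reached that of the count filter in 3 libraries, all spheroids, so its 3D over 2D differences follow in part from that. P2rx5 lies on chromosome 11 from 73160421 to 73172685.

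Dio2, the type 2 deiodinase that converts thyroxine to T3, was near its detection limit and was also not called. It had 1 and 4 counts in 3D induced, 9 and 13 in 3D uninduced spheroids, 1 and 1 in 2D induced cultures, and 4 and 4 in 2D uninduced libraries. The 3D uninduced libraries were the highest and the only ones at the level of the count filter. Dio2 was thus tested only because it was high there, and its differences from that group follow in part from that. Within each format the induced libraries were below the uninduced ones. With induction the counting ratio was 0.195 in spheroids (5 against 22 counts, exact 95% interval 0.0576 to 0.527) and 0.327 in flat cultures (2 against 8 counts, 0.0339 to 1.64). These intervals cover counting error only and not the spread between libraries. The model gave -2.31 ± 0.71 in spheroids (log2, edgeR adjusted p = 0.205) and -1.53 ± 0.98 in flat cultures (0.402). The spheroid value was -1.74 or -3.42 without 3D induced replicate 1 or 2. Without induction the 3D over 2D difference was 1.69 ± 0.67 (edgeR adjusted p = 0.109, called only by limma-voom with group weights, 0.0280), and with induction it was 0.91 ± 1.05 (0.545), or 1.48 and -0.19 without 3D induced replicate 1 and 2. The summed macrophage markers given above and the endothelial ones (3 of 7 tested, Tie1 at 0 in every library) were also highest in 3D uninduced libraries. The endothelial sum was 1.42 to 3.34 CPM in 3D induced, 3.64 to 5.16 in 3D uninduced, 0.804 to 1.33 in 2D induced and 2.29 to 3.09 in 2D uninduced libraries. The labels name 3T3-L1 cells alone, so these sums are transcript levels in cultures of that line and not a measure of other cell types. Their relation to Dio2 was not tested. Dio2 (chromosome 12, 90724552 to 90738438) shares 100 exon bases with Gm26512 on the other strand, which had 0 to 2 counts per library.

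Of the 10 markers, 3 were called higher with induction in flat cultures (Kcnk3, Ppargc1b and Slc36a2, which was tested only because of its level there), where 3.17% of all tested genes were called higher, 1.34% lower and 4.52% in either direction. In spheroids 1 was called higher with induction (Ppargc1b), where 0.583% were called higher, 0.328% lower and 0.911% in either direction. Uninduced spheroids had 1 called higher than uninduced flat cultures (Kcnk3), where 5.42% were called higher, 4.02% lower and 9.44% in either direction. Induced spheroids had 2 called lower than induced flat cultures (Ppargc1b and Slc36a2), where 6.94% were called higher, 5.46% lower and 12.4% in either direction. The interaction called 1 lower (Kcnk3), where 0.0393% were called higher and 0.341% lower. The 4 comparisons share groups in pairs, so these counts are not independent of each other.

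**Figure D3:**
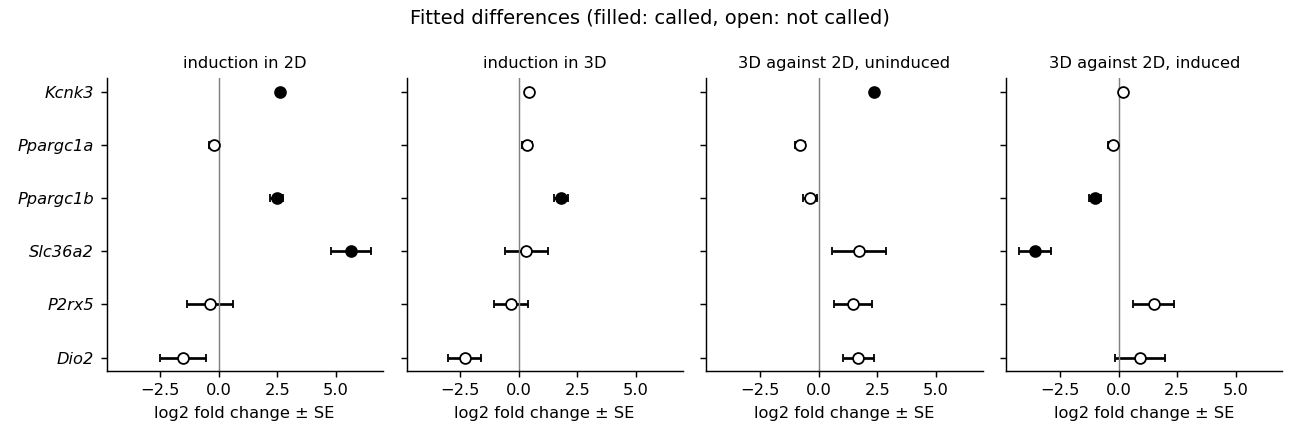
Fitted log2 differences of the 6 tested markers (x axis, bars are ± 1 SE of the edgeR model, n = 2 libraries per group) in the 4 comparisons, filled where called. Kcnk3 was called for induction in 2D (2.61) and for 3D against 2D without induction (2.37), and differed less in the other comparisons, without a call (0.42 and 0.19).

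Among 19 tested regulators of the thermogenic programme, 4 rose with induction in flat cultures and none fell. Over all tested genes 3.17% were called higher there and 1.34% lower. The list median was 0.18 log2 against 0 over all tested genes. Ebf2, a factor that marks brown and beige precursors, averaged 4.54 ± 2.29 CPM in 3D induced, 2.78 ± 0.131 in 3D uninduced, 9.09 ± 0.783 in 2D induced and 2.99 ± 0.144 in 2D uninduced cultures (induction in flat cultures 1.604 ± 0.35, edgeR adjusted p = 0.0294). Nrip1, a corepressor that holds back oxidative genes and Ucp1, averaged 52.1 ± 1.31 CPM in 3D induced, 34.3 ± 0.386 in 3D uninduced, 58.6 ± 0.00761 in 2D induced and 18.4 ± 0.355 in 2D uninduced cultures (1.67 ± 0.11, adjusted p = 1.84e-04). Esrra, the estrogen-related receptor that works with PGC-1 proteins (1.06 ± 0.15, edgeR adjusted p = 0.00606), and Klf15, a glucocorticoid-responsive factor (4.12 ± 0.65, 0.00886), also rose. Klf15 was tested only because of its level in 2D induced libraries, the only ones at the level of the count filter. The calls of Esrra, Klf15 and Ebf2 were each lost when any 1 of the 4 flat libraries was left out, and that of Ebf2 also without either 3D uninduced library. In spheroids none of the 19 was called with edgeR or DESeq2, and 4 had an unadjusted edgeR p under 0.05. With edgeR 0.911% of all tested genes were called there in either direction, so 0 of 19 is near the general share. Between induced cultures Klf15 was lower in spheroids (-3.26 ± 0.61, edgeR adjusted p = 0.00733), and Sirt1 (1.12 ± 0.27, 0.0200) and Foxc2 (1.61 ± 0.42, 0.0262) were higher. The Sirt1 and Foxc2 calls were lost with the 4 induced libraries alone and without either 2D induced library or 3D induced replicate 2. That of Foxc2 was also lost without either 3D uninduced library, and that of Klf15 without 2D induced replicate 2 and with limma-voom group weights. Without induction Cebpb, an early fat cell factor, was higher in spheroids (1.28 ± 0.29, edgeR adjusted p = 0.0198), a call lost in 6 of 15 alternatives, among them leaving out 2D uninduced replicate 1 or any spheroid library.

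Of 12 mitochondrial biogenesis factors, 1 rose with induction in flat cultures, where 3.17% of all tested genes were called higher. It was Ppif, a matrix isomerase (log2 1.17 ± 0.22, edgeR adjusted p = 0.0160), and the list median was 0.43. In spheroids 0 were called with edgeR or DESeq2 (3 at an unadjusted edgeR p under 0.05), which is also near the 0.911% called over all tested genes. The list median in spheroids was 0.17 against 0.04 over all tested genes. Of 11 tested brown fat mitochondrial and fuel genes, 1 rose in flat cultures, Cox7a1, a respiratory chain subunit abundant in brown fat and muscle (2.48 ± 0.56, edgeR adjusted p = 0.0336). It averaged 0.593 ± 0.0723 CPM in 3D induced, 0.146 ± 0.102 in 3D uninduced, 2.17 ± 0.594 in 2D induced and 0.362 ± 0.192 in 2D uninduced cultures, and entered the test only through its 2D induced libraries. The calls of Ppif and Cox7a1 were lost when any 1 of the flat libraries was left out, and that of Cox7a1 also without either 3D uninduced library. Cox8b, another respiratory chain subunit of brown fat, had 1 to 3 counts in each group, and Cpt1b, the muscle and brown fat form of the carnitine transferase, had 0 to 10. Without induction the acyl-CoA thioesterases Acot11 (-2.205 ± 0.46, edgeR adjusted p = 0.0156) and Acot2 (-1.21 ± 0.26, 0.0159) were lower in spheroids than in flat cultures. Both of these calls were lost without either 2D uninduced library or 3D uninduced replicate 1, and that of Acot11 also without 3D uninduced replicate 2.

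Of 11 listed beige markers 4 were tested, and 1 rose in flat cultures, Ear2, which had 7 counts in 3D induced, 1 in 3D uninduced, 442 in 2D induced and 2 in 2D uninduced libraries. Over all tested genes 3.17% were called higher with induction in flat cultures and 1.34% lower. The lists in this paragraph are short, so their calls are given as single genes and not as results of the lists. The Ear2 calls, higher with induction in flat cultures (edgeR adjusted p = 3.28e-04) and lower in 3D induced than in 2D induced cultures (5.76e-04), held under all 15 alternatives. Ear2 reached the level of the count filter in 2D induced libraries alone, so these calls and their stability follow in part from that. Tmem26 and Tbx1, the usual surface and lineage markers of beige cells, were below the filter, with 9 to 16 and 0 to 1 counts per group. Tnfrsf9, another surface marker of beige cells, had 17 counts in 3D induced, 40 in 3D uninduced, 9 in 2D induced and 22 in 2D uninduced libraries. By mean level it was lower with induction in both formats, without a call. The list median with induction was -0.03 log2 in flat cultures and -0.08 in spheroids. Cited1, another listed beige marker below the filter, had 1 count in 3D induced, 0 in 3D uninduced, 19 in 2D induced and 2 in 2D uninduced libraries. Of the 8 brown lineage markers 4 were tested. Zic1, the classical one, had 0 counts in all libraries. Mpzl2, the brown fat marker also named Eva1, had 2 counts in 2D induced libraries and 0 in every other group. Eva1a, a different gene that was listed for its similar name, fell with induction in flat cultures (-2.15 ± 0.34, edgeR adjusted p = 0.00904, lost when any 1 flat library was left out). Its fall is thus not a result about the marker Eva1. Of 6 tested white fat markers, Agt, Psat1 and Retn rose in flat cultures (Psat1 not without 2D uninduced replicate 2), and Retn reached the level of the count filter in induced libraries alone. Dpt, an extracellular matrix gene, fell with induction in spheroids, at 353 ± 38.3 CPM in 3D induced against 809 ± 139 CPM in 3D uninduced cultures (-1.19 ± 0.15, edgeR adjusted p = 0.0144). This call was lost without any 1 flat library or 3D uninduced replicate 1, and with the 4 spheroid libraries alone. Fst, which encodes follistatin, was lower in spheroids than in flat cultures both with induction (-1.53 ± 0.27, edgeR adjusted p = 0.00616) and without (-1.70 ± 0.27, 0.00573, lost without 3D uninduced replicate 1). Agt, which encodes angiotensinogen, averaged 537 ± 21.2 CPM in 3D induced, 277 ± 45.6 in 3D uninduced, 721 ± 12.4 in 2D induced and 110 ± 3.72 in 2D uninduced cultures. Like Kcnk3, it was called higher in uninduced spheroids than in uninduced flat cultures (1.32 ± 0.13, edgeR adjusted p = 0.00130). Leptin (Lep) had 6 counts, all in 2D induced libraries, and Slc7a10 had 1 count in all.

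The adrenergic input to the programme was sparse. Adrb3, the β3-adrenergic receptor of mature fat cells, had 9 counts in 3D induced, 0 in 3D uninduced, 17 in 2D induced and 0 in 2D uninduced libraries. Adrb1 had 0 to 3 counts per group, and Adra1a had 0 in all. Of 13 tested genes of adrenergic and cyclic AMP signalling, 2 rose with induction in flat cultures, the protein kinase A subunit Prkar2b (1.47 ± 0.11, edgeR adjusted p = 3.05e-04) and the phosphodiesterase Pde3b (1.35 ± 0.31, 0.0347, lost when any 1 flat library was left out). Over all tested genes 3.17% were called higher there and 1.34% lower. The few calls in this list and those that follow are given as single genes and not as results of the lists. Of 8 tested genes of thyroid hormone handling, 2 rose in flat cultures. Thrsp, a thyroid hormone target of fat synthesis, had 99 counts in 3D induced, 1 in 3D uninduced, 450 in 2D induced and 5 in 2D uninduced libraries and was called in both formats, although in spheroids not without 3D uninduced replicate 1 or with the 4 spheroid libraries alone. Slc16a10, a transporter of aromatic amino acids and thyroid hormone, had 27, 1, 72 and 2 counts in the same order of groups, and its call was lost when any 1 flat library was left out. Thrsp and Slc16a10 were at the level of the count filter in induced libraries alone. Thra, the main thyroid hormone receptor here, was lower in spheroids at a p under the threshold but by less than 2-fold (-0.97 ± 0.17 between induced cultures, edgeR adjusted p = 0.00593, and -0.74 ± 0.17 between uninduced ones, 0.0203). Its level was 131 ± 16.7 CPM in 3D induced and 147 ± 33.6 in 3D uninduced, against 257 ± 0.442 in 2D induced and 246 ± 16.4 in 2D uninduced cultures. Dio1 and Dio3, the other deiodinases, had 0 counts in all libraries. Of 9 tested genes listed for creatine and calcium cycling, routes of heat production without UCP1, 1 rose in flat cultures, the ADP/ATP carrier Slc25a5 (1.43 ± 0.12, edgeR adjusted p = 4.75e-04). The other 8 were not called there, and the list median was -0.10 log2 against 0 over all tested genes. The rise of this carrier is thus not a rise of the list.

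**Figure D4:**
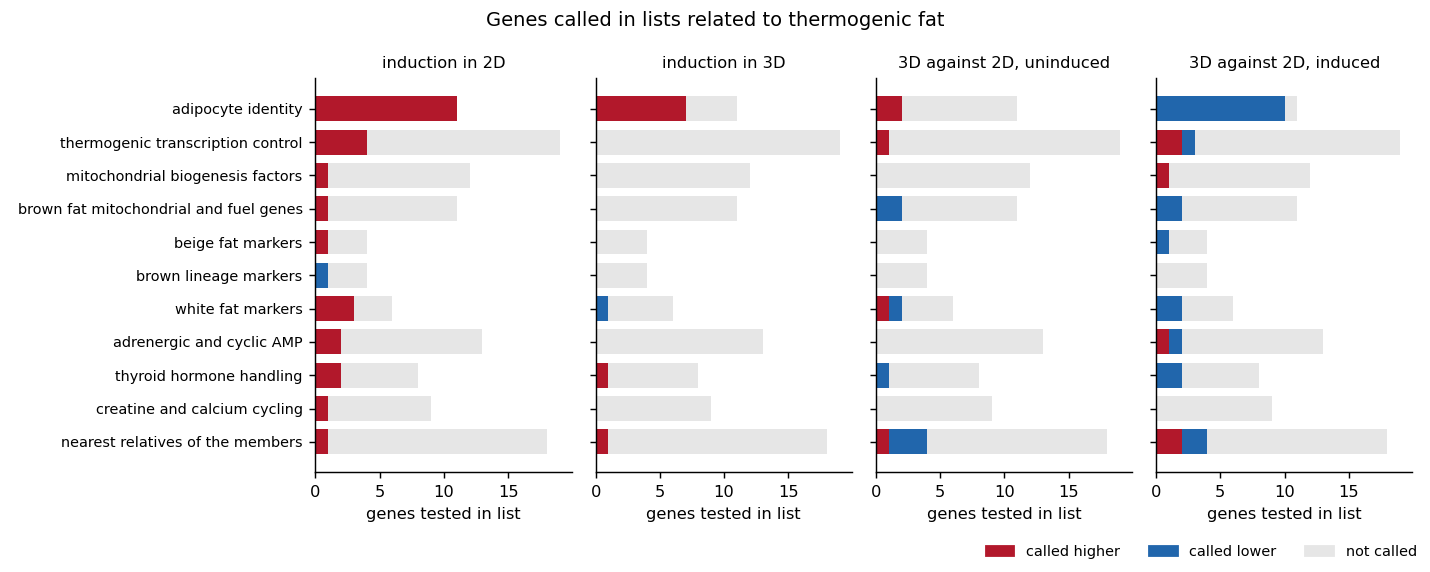
Number of tested genes in 11 lists related to thermogenic fat (x axes) that were called higher, called lower or not called in the 4 comparisons. All 11 tested fat cell identity genes were called higher with induction in 2D and 7 in 3D, against 4 and 0 of 19 regulators of the thermogenic programme. Over all tested genes 3.17% were called higher with induction in 2D and 0.583% in 3D, so 0 of 19 is near the general share.

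The general fat cell programme, set beside these lists, had all 11 tested genes called higher with induction in flat cultures and 7 in spheroids, and 10 lower in 3D induced than in 2D induced cultures. Leaving out 1 library at a time left 9 to 11, 3 to 9 and 7 to 10 of these calls. Plin1, the lipid droplet coat of fat cells, had 3548 counts in 3D induced, 190 in 3D uninduced, 6496 in 2D induced and 1 in 2D uninduced libraries. Cebpa averaged 28.4 ± 2.78 CPM in 3D induced, 12.7 ± 0.746 in 3D uninduced, 196 ± 10.1 in 2D induced and 15.9 ± 1.11 in 2D uninduced cultures.

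The genes whose profile over the 8 libraries lay closest to each tested marker were ranked by the root-mean-square difference of centred log2 CPM. For Kcnk3 these were Sh2b2 (0.252), Angptl4 (0.289) and Cbr2 (0.297), against a median of 1.15 over 11658 genes. Angptl4, a secreted inhibitor of lipoprotein lipase, averaged 551 ± 9.60 CPM in 3D induced, 363 ± 51.5 in 3D uninduced, 399 ± 13.9 in 2D induced and 109 ± 3.06 in 2D uninduced cultures, with the same low end in 2D uninduced cultures. For Ppargc1a the closest were Arvcf (0.0861), Slc39a3 (0.0904) and Bbc3 (0.112), and for Ppargc1b Adhfe1 (0.229), Rarres2 (0.260) and Cyp2f2 (0.268). For Slc36a2 they were Vsir (0.418), Fcor (0.449) and Dgat2 (0.479), all highest in 2D induced cultures. Vsir averaged 1.62 ± 0.765 CPM in 3D induced, 1.10 ± 0.0109 in 3D uninduced, 21.1 ± 0.234 in 2D induced and 1.05 ± 0.00700 in 2D uninduced cultures. For Dio2 they were Cxcl16 (0.266), Vwf (0.285) and Kcnk2 (0.310), and for P2rx5 Sec31b (0.318), Cfap74 (0.381) and Tert (0.392), where the low counts of both markers set much of the profile. Kcnk2, a relative of Kcnk3 in the same channel family, averaged 2.05 ± 0.411 CPM in 3D induced, 5.50 ± 0.883 in 3D uninduced, 1.59 ± 0.273 in 2D induced and 2.61 ± 0.177 in 2D uninduced cultures, an order unlike that of Kcnk3.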

How the data were processed

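RNA sequencing measured gene expression in 8 libraries of 3T3-L1 cells. The deposited table gives raw counts per gene, whole numbers that the authors had not normalized. The submitters' processing notes list FastQC 0.11.7 and Trimmomatic 0.38, with HISAT2 2.1.0 as aligner and featureCounts 1.6.3 as counter, on mm10. Of the count step, the annotation release and strand setting are unstated in the sources used here, while the kit is directional per the labels. Columns were joined to samples by their descriptions. The 2D uninduced columns are numbered 2 and 3 in the table, and the numbers 1 and 2 of the titles are used.

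R 4.3.3 was used with edgeR 4.0.16 as the main tool, and limma 3.58.1 and DESeq2 1.42.0 for alternatives. The filter filterByExpr (minimum count 10) kept 15255 genes. A single robust quasi-likelihood model of the TMM-scaled libraries (4 residual degrees of freedom) served every two-sided comparison and the interaction, which is the 3D induction difference minus the 2D one. An SE is the absolute log2 fold change over the root of its F value. The script was tested on simulated counts, with the same spread in all groups and changes in 2D induced libraries alone. That cannot show how the tests behave with the wider spread of the 3D induced replicates. An exact permutation test of 2 libraries against 2 cannot go below 0.333, so none was used. Exon lengths come from GENCODE vM21. A level of 1 CPM was 11.2 to 20.1 counts.

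The markers, gene lists and tests were chosen with earlier results of these data known. Named from the lists were called genes (at most 6 per list and comparison, by smallest adjusted p), Adipoq, Plin1, Fabp4, Pparg and Cebpa, and the 3 genes closest to each tested marker (mean log2 CPM of at least 0, no Gm or Rik symbols). Listed genes named for low counts, such as Zic1, Adrb3 and Lep, and Ucp2, Thra, Tnfrsf9, Gm9899, Gm26512 and Pitx3 were named after their values were seen. The 15 alternatives were DESeq2 size factors, total counts, the DESeq2 Wald test, no count filter, a replicate block, only the 4 libraries of a comparison, limma-voom with group weights, and leaving out each library in turn. The version with 4 libraries could not be run for the interaction.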

Additional observations from a re-analysis of the deposited data

Results flagged for a closer look

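For 5 named genes the response to induction differed between spheroids and flat cultures in the test of the difference itself (edgeR quasi-likelihood interaction, 3D minus 2D, on the log2 scale). Kcnk3 had an interaction of -2.19 (adjusted p = 0.00469). Among the fat cell genes, Plin1 had -8.69 (edgeR adjusted p = 0.00139), a value that depends on the prior count because 2D uninduced libraries held 1 count, and Cebpa had -2.46 (0.00316). Nrip1, the corepressor, had -1.07 (edgeR adjusted p = 0.0374), and Agt had -1.75 (0.0174). In each of the 5 the induced difference was smaller in spheroids than in flat cultures. By mean level Kcnk3, Plin1, Nrip1 and Agt were higher in 3D uninduced than in 2D uninduced cultures. Cebpa was 12.7 CPM in 3D uninduced and 15.9 CPM in 2D uninduced cultures (not called). A higher 3D uninduced level in itself makes the interaction more negative, so these levels follow in part from how the genes were picked. The calls of Kcnk3, Cebpa, Nrip1 and Agt were lost in 4, 3, 7 and 5 of 14 alternatives, all of them left-out libraries except the replicate block for Nrip1, and that of Plin1 in none.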

How the results depend on the processing

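Kcnk3 and Ppargc1b with induction in 2D and Kcnk3 in uninduced 3D against 2D were called under all 15 alternatives. With induction in 3D, 0 markers were called under the replicate block, with the 4 libraries alone and with limma-voom group weights. In uninduced 3D against 2D, limma-voom called 2 markers, and in induced 3D against 2D total counts called 1 and the 4 libraries alone and limma-voom 0. The interaction called 2 markers with no count filter. Leaving out 1 library gave 2 to 3 markers (induction in 2D), 0 to 1 (induction in 3D), 1 to 2 (uninduced 3D against 2D), 0 to 2 (induced 3D against 2D) and 0 to 2 (interaction). Over all genes these left-out libraries gave 225 to 1169, 24 to 1225, 552 to 2170, 871 to 3025 and 1 to 686 called genes in the same order of comparisons, against 689, 139, 1440, 1892 and 58 with all libraries. Other settings called 1213 (4 libraries alone) and 1346 (limma-voom) genes for induction in 2D. For induction in 3D they called 242 (DESeq2), 336 (no filter), 0 (4 libraries alone) and 78 (limma-voom). They called 825 in induced 3D against 2D (4 libraries alone), and 163 (DESeq2), 209 (no filter) and 97 (limma-voom) for the interaction. The causes were not tested. Directions turned only for uncalled low-count markers. P2rx5 with induction in 2D ranged over left-out libraries from -5.21 to 0.44 (0.44 without 2D induced replicate 1). Its interaction was -0.0031 with total counts and -0.80 to 4.85 over left-out libraries, negative when replicate 1 of 2D induced, of 3D uninduced (-0.11) or of 3D induced (-0.15) was left out. Slc36a2 with induction in 3D was -0.077 with limma-voom and -1.58 to 1.07 over left-out libraries, negative when 3D uninduced replicate 1 (-0.07) or replicate 2 of 3D induced was left out. Dio2 in induced 3D against 2D was -0.19 to 1.48, negative without 3D induced replicate 2.

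The labels give no shared batch for libraries with the same replicate number. Same-numbered deviations correlated at 0.206 between 3D induced and 3D uninduced libraries and at -0.0062 to 0.0265 in the other pairs of groups. Whether same-numbered spheroid libraries shared a preparation was not tested. The replicate block called 639, 114, 1382, 1825 and 39 genes in the order above. With total counts in place of TMM, the median of all genes was 0.20 log2 in uninduced and 0.17 in induced 3D against 2D. With TMM these medians were 0.027 and 0.032. The higher and lower calls with total counts were 1172 and 434, against 827 and 613 with TMM, and 1391 and 610, against 1059 and 833. A library left out of a group of 2 leaves 1 sample, which is assumed to vary like the other groups. Depth limits Ucp1, Prdm16, Cidea, Elovl3, Dio2 and P2rx5, with at most 13 counts in any library.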
